A study of Mus musculus with 6 samples.

Results

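Soleus muscle of mice labelled Dach2-/-/Hdac9-/- was compared with wild-type (WT) soleus, both taken 3 days after denervation, the loss of the nerve supply. The 4 libraries whose titles name these groups were chosen, 2 of each genotype, of 6 libraries in all. The other 2 libraries, innervated WT soleus, entered the fit for its spread and are given as levels. The labels give adult age and the strain C57BL/6 for every group, and polyadenylated RNA came from the whole soleus, a postural calf muscle with many slow fibres. Innervated muscle of the double knockout was not analysed here, so a difference present before denervation cannot be told apart from one that follows it. The labels do not give the form of the deletions, the litter or exact age of the mice, or whether muscles were pooled.

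Muscle without its nerve raises myogenin (Myog), a transcription factor that binds E-boxes and drives acetylcholine receptor genes along the whole fibre. Hdac9 is a class II histone deacetylase that binds MEF2 factors, and Dach2 is a nuclear co-factor that works with Eya1 and its relatives. Both are known as nerve-dependent repressors of that programme in muscle. Gdf5, a ligand of the BMP family named in the title of the series beside these 3 genes, is known to limit the wasting of denervated muscle.

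Levels are CPM, a gene's fragments as a share of its library's total, scaled by TMM (a trimmed mean that equalises most genes between libraries), and are given for replicate 1 and then 2. Differences are log2 values, DKO-labelled minus WT, ± SE from edgeR's quasi-likelihood test, with p adjusted by Benjamini-Hochberg over 12247 genes and a gene called when that p was under 0.05. The labels do not say that the 2 libraries of a group came from separate animals, so p-values measure the spread between libraries, which may be technical. With 2 libraries against 2, an exact two-sided permutation test of a single gene cannot go below 0.333. In bulk muscle, fewer cells of a type and less RNA per cell cannot be told apart. Library totals ran from 25529434 to 46305449 fragments. On the first principal component (74.5% of the variance), innervated WT was at -67.1 and -68.5, WT denervated at 18.1 and 45.6, and DKO-labelled at 26.7 and 45.2. The denervated libraries thus lay closer by replicate number than by genotype on it. WT denervated replicate 2 stood apart on the second principal component (12.8% of the variance), at 38.7 with the other libraries at -24.9 to 8.7. The 2 WT denervated libraries differed from each other by a median of 0.34 on the log2 scale, the 2 DKO-labelled libraries by 0.22, and the fitted groups by 0.17. The last value compares groups of 2 libraries and the others compare single libraries, so they are unlike measures. The muscle's defining genes were abundant in every library: the slow myosin Myh7 was at 4470 and 1112 in WT denervated and 2213 and 1225 in DKO-labelled muscle, overlapping. Y-linked transcripts were present in every library, and Kdm5d, Ddx3y, Eif2s3y and Uty were all detected.

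The levels of the genes labelled as knocked out check the labels and come first. Dach2 (mm9, chromosome X: 110411864 to 110949995) was at 29.99 and 32.4 in innervated WT, 3.62 and 3.85 in WT after denervation and 6.71 and 4.88 in the DKO-labelled libraries. The labelled knockouts thus lay above both WT denervated libraries, with a difference of 0.64 ± 0.23 that was not called (adjusted p = 0.727). Those values rest on 237 and 162 fragments against 178 and 121. A sum over the whole gene does not test a deletion of part of it, and where on the gene these fragments lie cannot be read from the tables, so the libraries are called DKO-labelled throughout.

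Hdac9 (chromosome 12: 35056361 to 35213754) was at 27.0 and 20.5 in innervated WT, 12.1 and 1.91 in WT after denervation and 3.42 and 1.18 in the DKO-labelled libraries. Its groups overlapped, since WT denervated replicate 2 fell between the DKO-labelled libraries, and the difference of -1.62 ± 0.85 was not called (adjusted p = 0.918). It turned to 0.28 without WT denervated replicate 1.

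Of the 12247 genes tested, 5 were called (0.0408%), 3 higher (0.0245%) and 2 lower (0.0163%) in DKO-labelled muscle. At an unadjusted p under 0.05, 325 genes were higher (2.65%) and 423 lower (3.45%). Both DKO-labelled libraries lay on one side of both WT libraries for 3495 genes (28.5%), above them for 1735 (14.2%) and below them for 1760 (14.4%). With plain library totals in place of TMM, the split was 2325 above and 1311 below. With 1 library fewer, separation is easier to reach, so list counts made that way are to be read against other shares of all genes. These were 37.7% above and 39.3% below without WT denervated replicate 1, and 33.1% and 33.3% without WT denervated replicate 2. Without DKO-labelled replicate 1 they were 26.3% and 28.4%, and without DKO-labelled replicate 2 they were 29.6% and 29.0%. For 93 genes (0.759%) even the nearest libraries of the groups were at least 2-fold apart, 47 of them higher (0.384%) and 46 lower (0.376%).

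**Figure D1:**
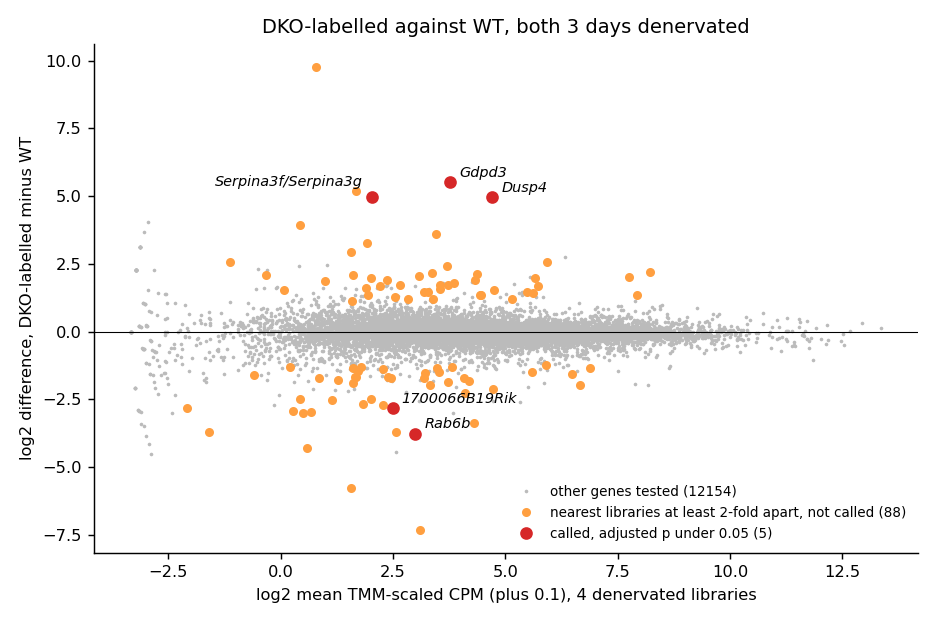
Fitted log2 difference of DKO-labelled minus WT denervated muscle (vertical) against the log2 mean level in the 4 denervated libraries (horizontal), 1 point per gene tested. The 5 called genes are red and named, the 88 further genes whose nearest libraries are at least 2-fold apart are orange, and the other genes lie mostly close to 0.

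Gdpd3, which encodes a lysophospholipase D of the glycerophosphodiester phosphodiesterase family, had the largest called difference. On chromosome 7 (133909927 to 133919159), it was at 0.951 and 1.11 in innervated WT, 0.691 and 0.445 in WT after denervation and 24.1 and 29.2 in the DKO-labelled libraries. It was near the bottom of the range in all 4 WT libraries and rose 45.7-fold in the DKO-labelled ones (5.51 ± 0.32, adjusted p = 0.0124).

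Dusp4, a nuclear phosphatase that switches off MAP kinases, was the second gene to rise. Its level (chromosome 8: 35870663 to 35882948) was 4.16 and 6.44 in innervated WT, 1.53 and 1.72 in WT after denervation and 42.7 and 58.5 in the DKO-labelled libraries. The DKO-labelled libraries were above innervated as well as denervated WT, and the difference from denervated WT was 31.2-fold (4.97 ± 0.32, adjusted p = 0.0133).

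The third was a joined entry of 2 neighbouring serine protease inhibitor genes, Serpina3f,Serpina3g (chromosome 12: 105452753 to 105480144). It was at 0.247 and 0.278 in innervated WT, 0.203 and 0.286 in WT after denervation and 9.62 and 5.79 in the DKO-labelled libraries. These are 10 and 9 fragments against 340 and 192, a difference of 31.7-fold (4.98 ± 0.44, adjusted p = 0.0478).

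Rab6b, a small GTPase of Golgi traffic best known from neurons, fell most among the called genes. It lies on chromosome 9 (103014403 to 103087600) and was at 18.2 and 18.0 in innervated WT, 15.7 and 13.7 in WT after denervation and 1.30 and 0.844 in the DKO-labelled libraries. The 4 WT libraries were alike and the DKO-labelled ones 13.6-fold lower than denervated WT (-3.77 ± 0.28, adjusted p = 0.0199). The unnamed transcript 1700066B19Rik on chromosome 18 fell 7.05-fold, from 9.62 and 9.73 to 1.47 and 1.27 (-2.82 ± 0.26, adjusted p = 0.0478), with 11.6 and 15.0 in innervated WT.

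All 5 calls were lost when either innervated library or either DKO-labelled library was left out. All 5 stood without WT denervated replicate 1, and all but Serpina3f,Serpina3g stood without WT denervated replicate 2. With plain library totals, the calls of Serpina3f,Serpina3g and 1700066B19Rik were lost. The same 2 were lost, each with an adjusted p of 0.056, when the 2 runs of consecutive sample numbers entered as a replicate block. With the 4 denervated libraries fitted alone, all 5 calls were lost. Over all alternatives the highest adjusted p was 0.0917 for Gdpd3 and Dusp4, 0.276 for Rab6b, 0.317 for Serpina3f,Serpina3g and 0.344 for 1700066B19Rik.

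The promoters of the called genes with the largest rise and the largest fall are shown because myogenin and its partners bind E-boxes. Each window is the 250 bases before the start that RefSeq gives on GRCm38.p6, a later build than that of the tables, and capitals mark every match to CANNTG, which reads the same on both strands. Dusp4 and Serpina3f,Serpina3g had no window here. The Gdpd3 window, chr7:126766164-126766413 on the plus strand, holds 1 match that begins 231 bases before the start. The Rab6b window, chr9:103111824-103112073 on the plus strand, holds 1 match at 72 bases.
Gdpd3: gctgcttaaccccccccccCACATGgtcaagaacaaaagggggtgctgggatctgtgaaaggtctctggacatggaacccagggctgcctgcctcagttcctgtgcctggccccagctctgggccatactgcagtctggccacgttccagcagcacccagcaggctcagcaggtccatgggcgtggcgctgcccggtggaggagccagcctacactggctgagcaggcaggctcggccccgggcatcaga
Rab6b: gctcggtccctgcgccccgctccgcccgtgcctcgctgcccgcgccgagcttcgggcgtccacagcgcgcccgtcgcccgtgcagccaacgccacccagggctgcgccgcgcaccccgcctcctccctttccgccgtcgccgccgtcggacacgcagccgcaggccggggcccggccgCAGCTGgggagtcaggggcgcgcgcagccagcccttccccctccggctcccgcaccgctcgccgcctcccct
A match is common: 57.9% of 10855 windows of tested genes and 66.2% of 32851 windows of all genes hold at least 1.

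**Figure D2:**
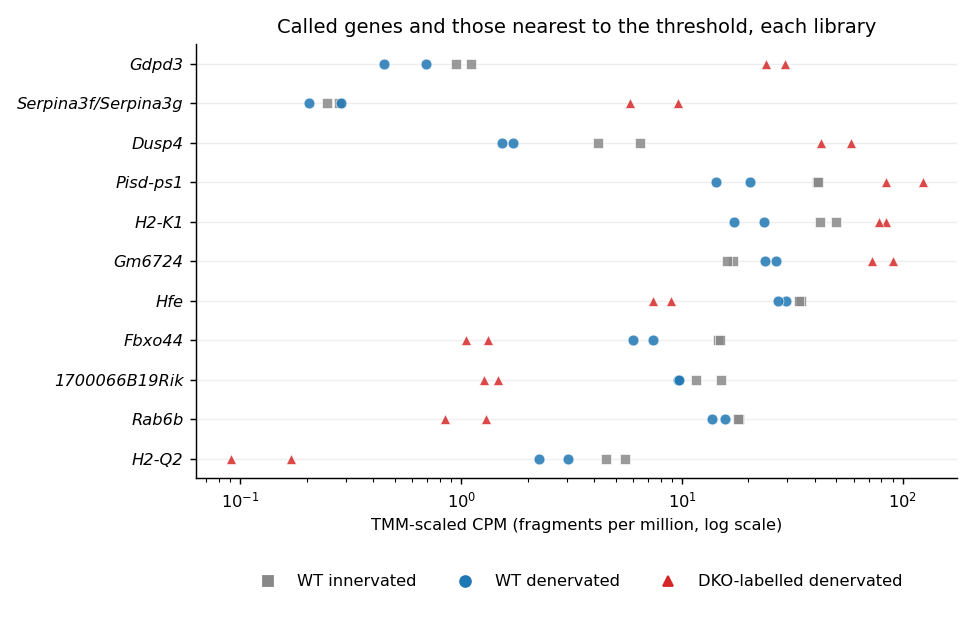
Level in each library, on a log axis of TMM-scaled CPM, for the 5 called genes and the 6 genes nearest to the threshold outside it. For all 11 genes the red triangles (DKO-labelled, 2 libraries) lie clear of the blue circles (WT denervated, 2 libraries), and for most the grey squares (WT innervated, 2 libraries) lie nearer to the blue.

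The nearest genes outside the threshold all had an adjusted p of 0.052. Higher among them were the pseudogene Pisd-ps1, at 20.3 and 14.3 in WT and 123 and 83.7 in DKO-labelled muscle (2.58 ± 0.26), and the unnamed Gm6724 (1.68 ± 0.18). H2-K1, which encodes a classical MHC class I heavy chain, was at 42.0 and 49.9 in innervated WT, 23.5 and 17.2 in WT after denervation and 83.7 and 78.4 in the DKO-labelled libraries (1.99 ± 0.20). Lower were Hfe, H2-Q2 and Fbxo44, a ubiquitin ligase subunit that was at 7.36 and 6.01 in WT and 1.05 and 1.33 in DKO-labelled muscle (-2.49 ± 0.26). Hfe, an MHC class I-like protein of iron control, was at 29.7 and 27.2 against 7.36 and 8.95 (-1.80 ± 0.18). H2-Q2, a nonclassical class I gene, was at 3.05 and 2.26 against 0.170 and 0.0904 (-4.31 ± 0.45), or 150 and 71 fragments against 6 and 3. None of these 6 overlapped between the groups, and none was called.

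The synapse between nerve and muscle holds the receptor for acetylcholine and the proteins that cluster it. Of 25 synaptic genes tested, 4 lay above and 3 below WT in both DKO-labelled libraries (16.0% and 12.0%, against 14.2% and 14.4% of all genes). The median was 0.01 beside -0.02 over all genes, and 0 were called. The balance turned with the WT library, to 13 higher and 6 lower without replicate 1 (against 37.7% and 39.3% of all genes) and 5 higher and 10 lower without replicate 2 (against 33.1% and 33.3% of all genes). Myog (chromosome 1: 136186580 to 136189125) was at 14.7 and 13.3 in innervated WT, 239 and 813 in WT after denervation and 420 and 656 in the DKO-labelled libraries. The DKO-labelled libraries lay inside the WT range, and the difference was 0.03 ± 0.53 (adjusted p = 0.998).

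The fetal receptor subunit Chrng was at 456 and 147 in WT after denervation and 484 and 460 in the DKO-labelled libraries, against 3.98 and 1.67 in innervated WT. The groups were separated by a log2 distance of only 0.01, and WT denervated replicate 2 held the single low value (0.64 ± 0.54, adjusted p = 0.970). The subunits Chrna1, Chrnb1, Chrnd and Chrne overlapped between the groups, with differences from -0.03 (Chrne) to 0.28 (Chrnd). Musk, the receptor kinase that organises the synapse, was at 148 and 180 in WT and 207 and 255 in DKO-labelled muscle, and at 38.9 and 37.6 in innervated WT. Its groups did not overlap, and the difference of 0.49 ± 0.17 was not called (adjusted p = 0.726).

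Colq, the collagen tail that anchors acetylcholinesterase, had the largest difference of the synaptic genes. It was at 33.7 and 37.1 in innervated WT, 15.3 and 12.3 in WT after denervation and 4.30 and 4.22 in the DKO-labelled libraries. Both DKO-labelled values were about 3-fold below WT denervated muscle, itself below innervated muscle, and the adjusted p of 0.0905 missed the threshold (-1.69 ± 0.20). The enzyme itself, Ache, overlapped between the groups, at 5.61 and 3.40 against 5.83 and 3.17 (-0.01 ± 0.38). The muscle nitric oxide synthase Nos1, which sits at the sarcolemma, was at 20.1 and 19.1 in innervated WT, 6.83 and 6.96 in WT after denervation and 2.89 and 2.38 in the DKO-labelled libraries (-1.39 ± 0.22, adjusted p = 0.173).

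**Figure D3:**
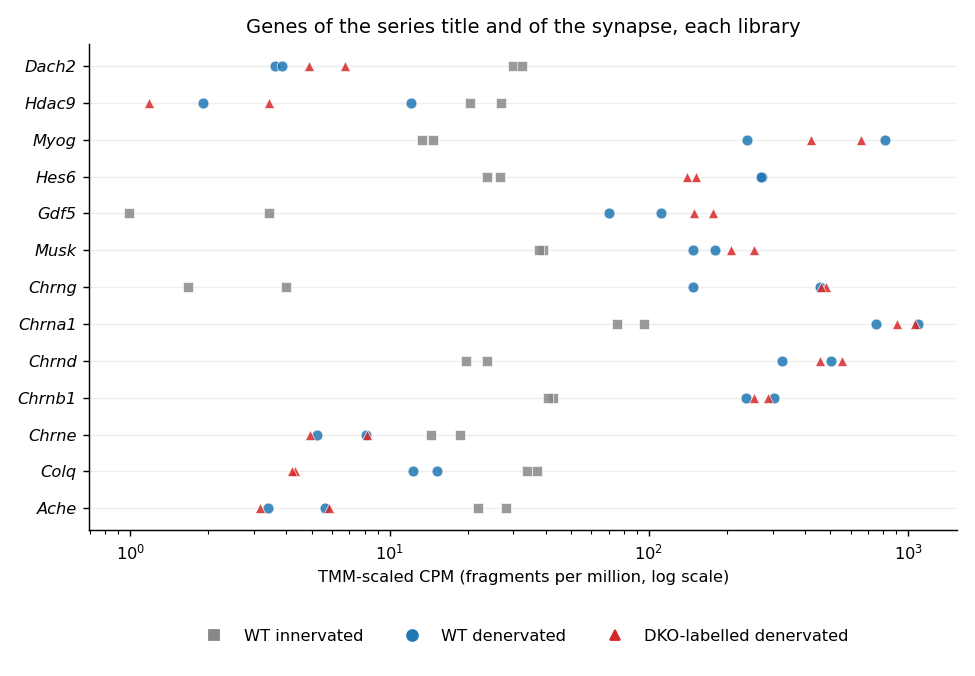
Level in each library, on a log axis of TMM-scaled CPM, for the genes of the series title, Hes6 and 8 synaptic genes. Red triangles (DKO-labelled, 2 libraries) fall among or near the blue circles (WT denervated, 2 libraries) for most genes, and Colq and Hes6 are the 2 genes drawn where both red triangles lie below both blue circles.

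Of 15 myogenic regulators, 0 were above (against 14.2% of all genes) and 5 below WT (33.3%, against 14.4%) in both DKO-labelled libraries. The median was -0.18, and 0 were called. Hes6, a basic helix-loop-helix co-factor that is switched on during myogenic differentiation, was at 23.8 and 26.6 in innervated WT, 273 and 271 in WT after denervation and 151 and 141 in the DKO-labelled libraries. The 2 libraries of each group were close to each other, the DKO-labelled level was roughly midway between the WT groups on a linear scale, and the difference of -0.90 ± 0.14 was not called (adjusted p = 0.177). Myod1, the master regulator of the lineage, was at 125 and 290 against 269 and 288 and overlapped (0.42 ± 0.42). Myf6, the third regulator of this family measured here, was at 454 and 1271 against 591 and 793 and also overlapped (-0.32 ± 0.45). The count depends on the WT library: without replicate 1, 1 member was higher and 12 lower (against 37.7% and 39.3% of all genes). Without replicate 2, 6 were higher and 6 lower, near the share of all genes on each side (33.1% and 33.3%).

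Hes6 has 2 annotated starts with a window each, shown because its groups lay farthest apart among the regulators. The outer window, chr1:91414039-91414288 on the minus strand, holds 3 E-box matches, at 220, 171 and 164 bases before its start. The inner one, chr1:91413223-91413472, holds 1 at 150 bases.
Hes6 outer: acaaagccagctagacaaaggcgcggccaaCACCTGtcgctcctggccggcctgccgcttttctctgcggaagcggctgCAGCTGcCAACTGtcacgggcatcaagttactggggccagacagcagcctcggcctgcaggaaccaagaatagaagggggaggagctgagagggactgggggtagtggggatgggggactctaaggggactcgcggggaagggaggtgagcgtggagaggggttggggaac
Hes6 inner: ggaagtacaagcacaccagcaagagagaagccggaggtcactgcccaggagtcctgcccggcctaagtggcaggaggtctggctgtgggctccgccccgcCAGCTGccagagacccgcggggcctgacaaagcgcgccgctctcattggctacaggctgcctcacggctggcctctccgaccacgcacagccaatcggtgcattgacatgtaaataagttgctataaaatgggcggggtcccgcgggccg
At least 3 matches occur in 7.11% of the windows of tested genes and in 12.2% of all windows, and the match count says nothing of binding.

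Gdf5 (chromosome 2: 155766760 to 155771100) was at 0.987 and 3.43 in innervated WT, 70.3 and 112 in WT after denervation and 149 and 177 in the DKO-labelled libraries. Both DKO-labelled libraries were above both WT ones, with a log2 distance of 0.41 between the nearest libraries. The fitted difference between the groups was 1.79-fold and was not called (0.84 ± 0.45, adjusted p = 0.926). Of 27 BMP and GDF ligands, receptors and antagonists, 4 were higher and 4 lower without overlap, with a median of 0.00. This is 14.8% on each side, near the 14.2% and 14.4% of all genes. The 3 others above WT were the BMP receptors Bmpr1a, Bmpr1b and Bmpr2. Bmpr1a was at 110 and 122 against 123 and 189 (0.42 ± 0.22), with a log2 distance of 0.0 between its nearest libraries. Those below were the ligands Bmp2 and Bmp6, the antagonist Fstl3 and the signal carrier Smad5, with Bmp2 at 4.03 and 3.43 against 1.87 and 3.05 (-0.60 ± 0.35). None of the 8 was called. The counts were 16 higher and 6 lower without WT denervated replicate 1 (against 37.7% and 39.3% of all genes). Without replicate 2, 5 were higher and 13 lower (against 33.1% and 33.3%).

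Of 18 tested partners and relatives of Dach2 and Hdac9 (among them Dach1, Six4, the Eya genes and class II deacetylases), 4 were higher and 3 lower. This is 22.2% and 16.7%, against 14.2% and 14.4% of all genes, with a median of -0.03. Dach1, the paralog of Dach2, was at 5.73 and 3.56 in WT and 3.28 and 3.17 in DKO-labelled muscle (-0.53 ± 0.30, adjusted p = 0.945). Hdac4, the class II deacetylase most tied to denervation, overlapped at 51.4 and 81.7 against 66.1 and 79.9 (0.13 ± 0.25), and so did Hdac5. Eya1, a co-activator at muscle promoters, differed from WT by -0.43 on the log2 scale, its relative Eya4 by 0.48 and the homeobox gene Six4 by 0.22. With 1 denervated library left out, 4 to 8 of the 18 were higher (against 26.3% to 37.7% of all genes) and 4 to 8 lower (against 28.4% to 39.3%).

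Genes of mitochondrial energy metabolism lay mostly below WT. Of 45 tested genes of oxidative phosphorylation, 25 were below WT in both DKO-labelled libraries (55.6%, against 14.4% of all genes) and 0 above. The sizes were small: the median was -0.18, the range -0.46 to 0.04, 43 of the 45 values were below 0, and 0 members were called. Cox7a1, a muscle subunit of cytochrome oxidase, was lowest at 176 and 204 in WT and 131 and 145 in DKO-labelled muscle, against 421 and 548 in innervated WT (-0.46 ± 0.18, adjusted p = 0.796). The complex I subunit Ndufv1 was at 420 and 463 against 361 and 364 (-0.28 ± 0.16), and the ATP synthase subunit Atp5b at 3590 and 3685 against 3036 and 3056 (-0.26 ± 0.18). The summed level of the list was 19230 and 21140 in WT and 17050 and 18290 in DKO-labelled muscle, with 37790 and 42780 in innervated WT.

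Of 21 genes of the TCA cycle, which feeds electrons to that chain, 13 were lower (61.9%, against 14.4% of all genes). Higher were 2 (9.52%, against 14.2%), and the median was -0.18. Sdha and Sdhb were counted both here and in oxidative phosphorylation. The summed level of the list was 9867 and 9969 in WT and 9843 and 8798 in DKO-labelled muscle, so the nearest libraries almost touched. Idh2, the mitochondrial isocitrate dehydrogenase, was at 1893 and 2001 in innervated WT, 208 and 259 in WT after denervation and 162 and 144 in the DKO-labelled libraries (-0.61 ± 0.18, adjusted p = 0.554). The 2 above WT were Suclg1 and Pdk4, the kinase that shuts pyruvate dehydrogenase. Pdk4 was at 608 and 621 against 1293 and 651, so DKO-labelled replicate 1 set most of the size (0.66 ± 0.36, not called).

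Fatty acid uptake and oxidation had 10 of 26 lower (38.5%, against 14.4% of all genes) and 1 higher (3.85%, against 14.2%), with a median of -0.33. The summed level of the list overlapped, at 5113 and 7032 in WT and 5219 and 4408 in DKO-labelled muscle. Lpl, the lipase that releases fatty acids at the capillary wall, was at 515 and 344 in WT and 238 and 210 in DKO-labelled muscle (-0.94 ± 0.24, adjusted p = 0.444). Acadm, a dehydrogenase of beta oxidation, was at 187 and 253 against 146 and 147 (-0.59 ± 0.19). The gene above WT was the uncoupling protein Ucp3, at 19.6 and 16.9 against 128 and 21.7, so DKO-labelled replicate 1 alone set the size (2.03 ± 0.73, adjusted p = 0.740).

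In all 3 lists more members were lower than higher under every scaling tried and with any 1 denervated library left out, while the counts moved. For oxidative phosphorylation, 18 members were lower with plain totals (10.7% of all genes were), 23 with DESeq2's factors (15.1%) and 30 with the authors' FPKM (15.1%). Leaving out WT denervated replicate 1 gave 43 (95.6%, against 39.3% of all genes) and leaving out DKO-labelled replicate 2 also gave 43 (against 29.0%). Without WT denervated replicate 2 it was 25 (55.6%, against 33.3%), with a median of -0.09. The same omission gave 15 of 21 for the TCA cycle (71.4%). For fatty acids it gave 11 of 26 lower (42.3%) and 5 higher (19.2%, against 33.1% of all genes), with a median of -0.09. Leaving out DKO-labelled replicate 2 also gave 11 lower and 5 higher for fatty acids (against 29.0% and 29.6% of all genes), with a median of -0.22. The fatty acid count was 20 without either WT denervated replicate 1 or DKO-labelled replicate 1 (against 39.3% and 28.4% of all genes).

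**Figure D4:**
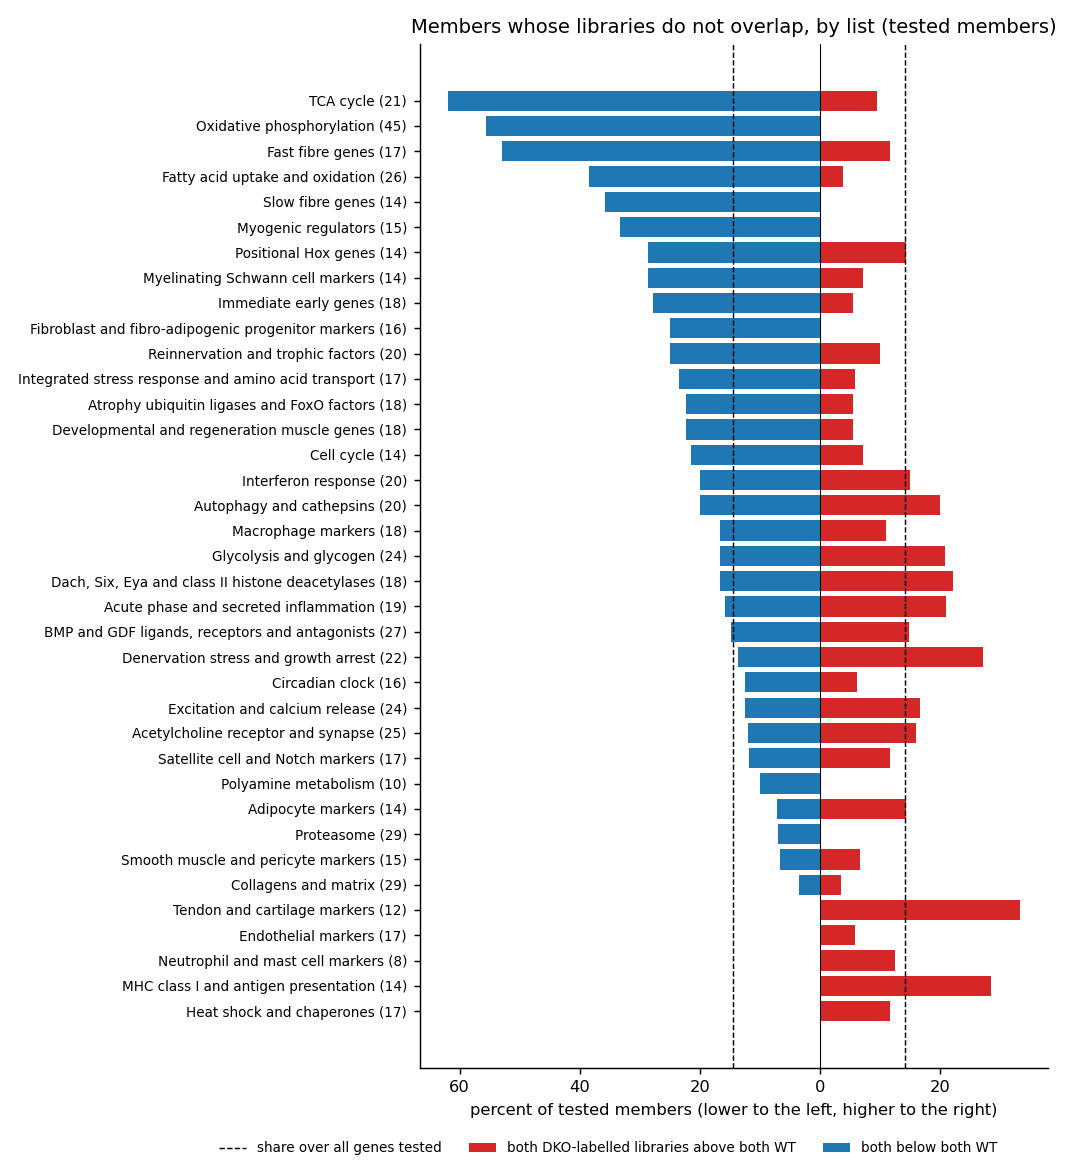
Percent of the tested members of each gene list whose DKO-labelled libraries both lie below (blue, left) or above (red, right) both WT denervated libraries, for lists of at least 8 tested members, whose number is in brackets. Dashed lines give the same over all genes tested, 14.4% and 14.2%, and the lists of the TCA cycle, oxidative phosphorylation and fast fibre genes reach farthest to the left.

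Contractile genes had more members below WT than above it. Of 17 fast fibre genes, 9 were lower (52.9%, against 14.4% of all genes) and 2 higher (11.8%, against 14.2%), with a median of -0.33. Of 14 slow fibre genes, 5 were lower (35.7%) and 0 higher (median -0.27). Tpm1, a tropomyosin, was at 4357 and 4034 in WT and 2984 and 2514 in DKO-labelled muscle (-0.61 ± 0.20, adjusted p = 0.642). Tpm3, the slow fibre tropomyosin, was at 1121 and 1057 against 599 and 819 (-0.62 ± 0.22, adjusted p = 0.741), and the oxygen store Mb at 7007 and 6807 against 4646 and 5290 (-0.48 ± 0.20). The 2 higher were Pgam2, a glycolytic mutase, and Actn3, the fast Z-disc actinin, at 1391 and 1225 against 2081 and 2111 (0.68 ± 0.56). Without WT denervated replicate 2, 13 fast and 9 slow genes were lower, beside 33.3% of all genes. Without WT denervated replicate 1, 9 fast genes were lower and 3 higher (52.9% and 17.6%, against 39.3% and 37.7% of all genes). The slow genes were then 7 lower and 3 higher (50% and 21.4%), with a median of -0.11. Without DKO-labelled replicate 1, 14 fast and 6 slow genes were lower (against 28.4% of all genes). Without DKO-labelled replicate 2, 9 fast and 9 slow genes were lower (against 29.0%), and plain totals left 3 slow genes. Glycolysis and glycogen genes lay on both sides, with 5 of 24 higher (20.8%) and 4 lower (16.7%), and a median of -0.10. The counts were 10 and 7 without WT denervated replicate 1 (against 37.7% and 39.3% of all genes). They were 7 and 12 without replicate 2 (against 33.1% and 33.3%). Pkm2 was at 1996 and 2067 against 3026 and 2724 (0.50 ± 0.18), and the glucose transporter Slc2a1 at 68.4 and 124 against 36.8 and 46.8 (-1.20 ± 0.30, adjusted p = 0.437).

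Denervated muscle loses protein through ubiquitin ligases and the proteasome. Of 18 atrophy ubiquitin ligases and FoxO factors, 1 was higher and 4 lower (5.56% and 22.2%, against 14.2% and 14.4% of all genes), with a median of -0.14. The counts were 3 and 12 without WT denervated replicate 1 (against 37.7% and 39.3%), and 2 and 5 without replicate 2 (against 33.1% and 33.3%). Trim63, the ligase MuRF1, was at 313 and 436 against 292 and 343, and Fbxo32, the ligase atrogin-1, at 245 and 379 against 256 and 197, both overlapping (-0.24 ± 0.22 and -0.46 ± 0.26). Of 29 proteasome subunits, 0 were higher and 2 lower (6.9%, against 14.4% of all genes), with a median of -0.11. For 14 of them (48.3%) both DKO-labelled libraries lay between the WT libraries, compared with 25.5% of all genes. The opposite, both WT libraries between the DKO-labelled ones, was seen for 0 of them and for 10.5% of all genes. The proteasome counts turned with the WT library used, to 27 lower without replicate 1 (against 39.3% of all genes) and 16 higher without replicate 2 (against 33.1% of all genes).

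Among 22 genes of denervation stress and growth arrest, 6 were higher and 3 lower (27.3% and 13.6%, against 14.2% and 14.4% of all genes). The median was -0.14, and Dusp4 was the 1 called. Fgf13, an intracellular modulator of sodium channels, was at 34.3 and 29.7 in innervated WT, 119 and 112 in WT after denervation and 159 and 186 in the DKO-labelled libraries (0.59 ± 0.16, adjusted p = 0.488). Runx1, also raised by loss of the nerve, overlapped at 329 and 529 against 399 and 548 (0.14 ± 0.34). The counts of the list became 6 and 13 without WT denervated replicate 1 (against 37.7% and 39.3% of all genes). They were 14 and 4 without replicate 2 (against 33.1% and 33.3%).

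Trophic factors and genes of reinnervation had 2 of 20 higher and 5 lower (10% and 25%, against 14.2% and 14.4% of all genes), with a median of -0.09. The counts turned to 11 and 5 without WT denervated replicate 1 (against 37.7% and 39.3%). They were 2 and 14 without replicate 2 (against 33.1% and 33.3%). Fgfbp1, a carrier of fibroblast growth factors that acts at the synapse, was at 1.48 and 2.16 against 0.453 and 0.754 (-1.59 ± 0.42, adjusted p = 0.478). Vegfa, the angiogenic factor, was at 116 and 156 against 84.0 and 88.9 (-0.65 ± 0.18), and Fndc5, the precursor of irisin, at 56.7 and 56.2 against 35.6 and 37.8 (-0.62 ± 0.16). Of 18 developmental and regeneration genes, 1 was higher and 4 lower (5.56% and 22.2%), with 8 and 6 without WT denervated replicate 1 and 3 and 13 without replicate 2. The shares of all genes are those given for the trophic factors. The cardiac and embryonic troponin Tnnt2 was at 156 and 112 against 41.6 and 49.4 (-1.56 ± 0.34, adjusted p = 0.357), with 39.8 and 20.02 in innervated WT, so the DKO-labelled level was nearer to innervated muscle. The adhesion molecule Cdh15 was the 1 above WT, at 58.9 and 47.4 against 74.6 and 90.5 (0.64 ± 0.18).

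Large differences that were not called included those of secreted and surface proteins. Serpina3n, a relative of the called Serpina3f,Serpina3g entry, was at 79.6 and 92.0 against 420 and 268 (2.003 ± 0.27, adjusted p = 0.134). Its neighbour Serpina3m was at 3.48 and 4.58 against 25.6 and 18.0 (2.44 ± 0.35, adjusted p = 0.140). All 4 Serpina3 entries tested, a family singled out after its values were seen, were above WT without overlap, beside 14.2% of all genes. The filter on mean FPKM takes in the DKO-labelled libraries, so an entry low in WT can pass through them alone. The count is therefore a description and no separate support. Fragments of such close copies may be shared between them, and how they were counted is not given in the sources used here. Klk1b22, a kallikrein of a family of near copies, had 0 fragments in both WT denervated libraries and 46 and 174 in DKO-labelled muscle, so its level was at least 86.3-fold higher when the WT group is set to the 3 fragments that a count of 0 allows. That bound is 35.0-fold from DKO-labelled replicate 1 alone and 141-fold from replicate 2 alone. Its adjusted p was 0.213. Ccl27a, a chemokine, was at 0.163 and 0.127 against 2.91 and 1.75 (3.95 ± 0.49, adjusted p = 0.106).

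On the lower side, Retnla, a secreted product of alternatively activated macrophages, was at 35.7 and 20.96 against 6.14 and 5.76 (-2.25 ± 0.31, adjusted p = 0.134). Msln, the surface protein mesothelin, was at 15.3 and 6.42 against 0.679 and 0.995 (-3.70 ± 0.75, adjusted p = 0.309). The transcript U90926 had 335 and 142 fragments in WT after denervation, 7 and 0 with the DKO label and 0 in both innervated libraries, with an adjusted p of 0.213. Ethe1, a mitochondrial sulfur dioxygenase, was at 67.2 and 76.4 against 23.3 and 27.3 (-1.51 ± 0.20, adjusted p = 0.134). The integrin subunit Itga9 was at 83.0 and 85.0 against 30.8 and 39.9 (-1.25 ± 0.18, adjusted p = 0.140). None of these was called, and none overlapped.

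Position on the chromosomes was examined for the 93 genes whose nearest libraries were at least 2-fold apart, except the histone gene Hist1h2br on chromosome 13. Symbols summed over more than 1 entry, as that gene was, were left out of all counts by position. Chromosome 17 held 17 of them among 612 tested (2.78%), chromosome 13 held 8 of 457 (1.75%), and chromosomes 6, 15, 19 and X held 0. All shares in this paragraph with a 2-fold distance are to be set beside 0.759% of all genes. On chromosome 17, 10 of the 163 genes between 30 and 40 Mb (6.13%) were among them, and this stretch holds the MHC. On chromosome 13, 7 of 58 genes between 20 and 25 Mb (12.1%) were, namely Hfe on the lower side and 6 on the higher side, of which 5 are histone genes. These stretches were picked from the same values, and other 5 Mb stretches also held several such genes. They were chromosome 12 at 105 to 110 Mb (3 of 21, 14.3%, all Serpina3 entries) and chromosome 1 at 135 to 140 Mb (4 of 41, 9.76%). Chromosome 18 at 35 to 40 Mb held 3 of 56 (5.36%). Within 10 Mb of Dach2, 0 of 26 genes had such a distance, and within 10 Mb of Hdac9, 2 of 50 did (4%), Rrm2 and Rsad2, with 0 of 7 and 0 of 26 within 5 Mb. Groups did not overlap, at any distance, for 8 of the 26 genes within 10 Mb of Dach2 (30.8%) and 14 of the 50 near Hdac9 (28%), beside 28.5% of all genes. Within 5 Mb this was 2 of 7 (28.6%) and 5 of 26 (19.2%).

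**Figure D5:**
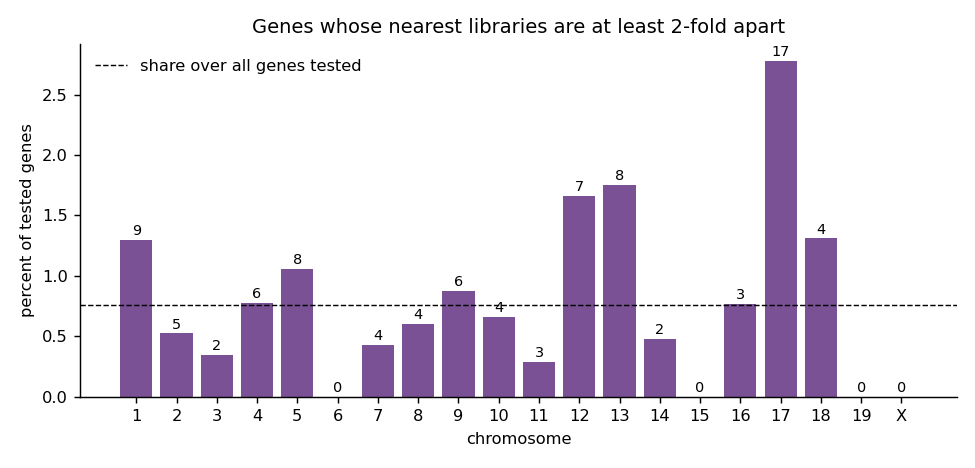
Percent of tested genes of 1 entry on each chromosome whose nearest DKO-labelled and WT denervated libraries are at least 2-fold apart, with the number of such genes above each bar. The dashed line is the share over all genes tested, 0.759%, and chromosome 17 stands highest at 2.78%.

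The MHC genes of chromosome 17 split in both directions. Of 21 H2 genes tested, a family taken up after its values were seen, 6 were higher and 7 lower without overlap (median -0.48, range -4.31 to 1.99). This is 28.6% and 33.3%, against 14.2% and 14.4% of all genes. Leaving out WT denervated replicate 2 gave 7 higher and 14 lower (against 33.1% and 33.3% of all genes). Leaving out DKO-labelled replicate 1 gave 6 and 13 (against 26.3% and 28.4%). The other omissions gave 7 and 8 for WT denervated replicate 1 (against 37.7% and 39.3%) and 6 and 7 for DKO-labelled replicate 2 (against 29.6% and 29%). H2-T23, a nonclassical class I gene, was higher at 8.42 and 6.93 against 14.1 and 13.4 (0.84 ± 0.20). H2-Q1 was at 2.12 and 2.13 against 0.424 and 0.332 (-2.48 ± 0.34), and H2-T10 at 7.97 and 7.57 against 2.91 and 1.93 (-1.68 ± 0.29). The partner of all class I chains, B2m on chromosome 2, overlapped at 144 and 112 against 134 and 111 (-0.07 ± 0.18). The class II genes H2-Aa, H2-Ab1 and H2-Eb1 overlapped as well. H2 genes are close copies of each other, so their single values are uncertain.

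Of 43 genes of histone cluster 1, also chosen after the values were seen, 23 were higher (53.5%, against 14.2% of all genes) and 4 lower (9.3%, against 14.4%), with a median of 0.32. With 1 denervated library left out, 25 to 31 were higher (58.1% to 72.1%, against 26.3% to 37.7% of all genes) and 4 to 10 lower. Hist1h4i was at 8.34 and 6.87 in WT and 29.6 and 37.8 in DKO-labelled muscle (2.15 ± 0.29, adjusted p = 0.134), and the linker histone Hist1h1d at 2.03 and 1.11 against 7.53 and 5.16 (1.99 ± 0.39). Most messages of these genes end without a poly(A) tail, so a library of polyadenylated RNA sees only part of them, and their coding sequences are near copies. Of 14 cell cycle genes, 1 was higher (7.14%) and 3 lower (21.4%), with a median of 0.08. Without WT denervated replicate 1 it was 8 and 3 (median 1.18), against 37.7% and 39.3% of all genes. Without replicate 2 it was 1 and 9 (median -0.35), against 33.1% and 33.3%. Rrm2, which makes deoxyribonucleotides for DNA synthesis, was at 113 and 211 against 28.3 and 54.9 (-1.96 ± 0.42, adjusted p = 0.341), and the replication helicase subunit Mcm6 at 23.7 and 22.5 against 11.4 and 6.57 (-1.36 ± 0.28).

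Markers of other cells were read as lists. Their counts are to be set beside the shares of all genes, 14.2% higher and 14.4% lower. These shares were 37.7% and 39.3% without WT denervated replicate 1, and 33.1% and 33.3% without replicate 2. Of 16 fibroblast and fibro-adipogenic progenitor markers, 0 were higher and 4 lower (25%), with a median of -0.20. Their summed level was 2750 and 2057 in WT and 1975 and 1863 in DKO-labelled muscle. The counts turned with the WT library, to 11 higher and 4 lower without replicate 1 and 0 higher and 16 lower without replicate 2. Of 12 tendon and cartilage markers, 4 were higher (33.3%) and 0 lower (median 0.59), with summed levels of 876 and 431 against 890 and 726. Without WT denervated replicate 2 this became 4 higher and 4 lower, and without replicate 1 it was 11 and 1. Macrophage markers had 2 of 18 higher (11.1%) and 3 lower (16.7%), with sums of 777 and 549 against 862 and 478. The counts were 7 and 3 without WT denervated replicate 1, and 2 and 8 without replicate 2. The 2 higher were Cd68, at 29.4 and 42.3 against 63.2 and 56.2 (0.74 ± 0.27), and Spp1. Spp1, which regenerating muscle also makes, was at 38.2 and 20.99 against 85.4 and 60.1 (1.30 ± 0.31). The 3 lower were Gpnmb, Lyz1 and Cd14. Lyz1 was at 26.4 and 19.5 against 14.4 and 8.2 (-1.02 ± 0.40), and Cd14 at 14.4 and 8.08 against 7.24 and 3.65 (-1.05 ± 0.47). The median of the list was 0.03, and 0 members were called.

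Endothelial markers had 1 of 17 higher (5.88%, against 14.2% of all genes) and 0 lower (against 14.4%), with sums of 768 and 718 against 957 and 658, overlapping. Without DKO-labelled replicate 1, 15 of the 17 were lower (88.2%, against 28.4% of all genes), and without DKO-labelled replicate 2, 13 were higher (76.5%, against 29.6%). Satellite cell and Notch markers had 2 of 17 on each side (11.8%). With 1 denervated library left out, 3 to 7 were higher (against 26.3% to 37.7% of all genes) and 5 or 6 lower (against 28.4% to 39.3%). Myelinating Schwann cell markers had 1 of 14 higher (7.14%) and 4 lower (28.6%), with sums of 160 and 150 against 150 and 140. The counts turned to 8 higher and 5 lower without WT denervated replicate 1 (against 37.7% and 39.3% of all genes). Without replicate 2, 1 was higher and 9 lower (against 33.1% and 33.3%). Adipocyte markers had 2 of 14 higher (14.3%) and 1 lower (7.14%), with sums of 3433 and 2036 against 2414 and 1423, overlapping. Their counts were 3 higher and 6 lower without WT denervated replicate 1, and 7 higher and 2 lower without replicate 2, beside the same shares. No lymphocyte marker passed the filter on low values, and the sum of that list was at most 2.32 in the denervated libraries. The part of these cells in the gene differences above was not tested.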

How the data were processed

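RNA sequencing of mouse soleus was read from 6 deposited tables, 1 per library. Sample titles gave the groups. TopHat2 2.0.3, Bowtie2 2.0.0.7, Cuffdiff 2.0.2, Trim Galore 0.2.1, CASAVA 1.8.2 and genome mm9 are listed in the submitters' processing notes. What each tool did is not given in the sources used here, nor are the annotation, the strand setting and the counting of shared fragments. The tables hold, per the file headers, FPKM made by the authors, a signal of externally scaled fragments, which was deposited but not used, and raw fragments. The last are estimated counts deposited by the authors, 88.4% to 89.0% of them whole. Each gene stood 3 times in 65415 lines, which left 21805 entries and 21572 symbols, with entries of 1 symbol summed (149) and 197 joined entries kept under the joined name.

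Counts were rounded and fitted with edgeR 4.0.16 (R 4.3.3, quasi-likelihood, TMM), all 6 libraries in 1 fit of group means, for 12247 genes of mean FPKM of at least 0.5. The fit left 3 residual degrees of freedom, and its common coefficient of variation between replicates was 0.222. The SE is the log2 difference divided by the square root of F. The method was tested on simulated data. Alternatives were DESeq2 1.42.0, limma 3.58.1 on log2(FPKM + 0.5) and log2(FPKM + 1), other scalings and filters, a block for the runs of sample numbers, and each library left out.

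Named genes were those of the series title and Gapdh, called genes, the 14 named genes per direction of smallest p and the 8 of largest distance among those without overlap, and up to 4 members per list. Not every gene so chosen is described, some are not reported here, and others are named as range ends or contrasts of their list. The 42 lists and this rule were written with earlier results of these data known. The p53, histone, H2 and Serpina3 families were added after the values were seen. List counts are descriptions, with no test.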

Additional observations from a re-analysis of the deposited data

How the results depend on the processing

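The number of called genes depended on the method. Beside 3 higher and 2 lower, edgeR with DESeq2's size factors called 5 and 5, DESeq2 80 and 101, limma on log2(FPKM + 0.5) 17 and 18, limma on log2(FPKM + 1) 16 and 18, and edgeR with no filter 29 and 31, all with the 5 genes among them. Plain library totals called 2 and 1, without 1700066B19Rik and Serpina3f,Serpina3g. A minimum mean FPKM of 2 left Gdpd3 and Dusp4 alone, 2 higher and 0 lower (264 and 324 at an unadjusted p under 0.05). The 4 denervated libraries alone gave 0 and 0 in edgeR (209 and 285 unadjusted), with fewer samples in the fit. Leaving out a library gave 0 to 45 higher and 0 to 74 lower, with the 45 and 74 without WT denervated replicate 1. The counts of 0 in both directions came without either innervated library (211 and 289, and 205 and 290 unadjusted) and without DKO-labelled replicate 2 (266 and 238). The cause was not tested.

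Genes that did not overlap numbered 1318 to 2476 above and 1311 to 2611 below under other scalings and filters, and 47 and 46 with a 2-fold distance. The filters change the number of genes counted. The 2476 and 2611 are of 18234 genes with no filter, and the 1318 are of 9749 genes at a mean FPKM of at least 2. With 1 library fewer, genes that did not overlap numbered 3226 to 4611 above and 3476 to 4807 below.

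The labels give no replicate numbers that pair libraries. A replicate block for the 2 runs of consecutive sample numbers called 3 higher and 1 lower, with Gdpd3, Dusp4 and Rab6b kept and Serpina3f,Serpina3g and 1700066B19Rik lost. Deviations from the group means correlated across genes at 0.455 between same-run denervated libraries and at 0.228 and 0.153 with the innervated ones.

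Over 81 genes the text gives a difference for, 11 turned in sign under some alternative, and none of them was called. Ache was 0.045 with plain totals and 0.001 at the stricter filter, and Chrne 0.024 with plain totals. With a library left out, the ranges were -0.52 to 0.41 for Ache, -0.24 to 0.13 for B2m, -1.18 to 0.39 for Cdkn1a, -0.43 to 0.33 for Chrne and -0.16 to 0.51 for Hdac4. They were -2.59 to 0.28 for Hdac9, -0.87 to 0.61 for Myf6, -0.055 to 1.16 for Myod1, -0.59 to 1.17 for Myog, -0.16 to 0.53 for Runx1 and -0.45 to 0.023 for Trim63. Depth limits the low genes most: Gdpd3 rests on 34 and 14 fragments in denervated WT.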

Other observations

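Of 23 target genes of p53, a list added after the values were seen, 3 were above and 9 below WT in both DKO-labelled libraries. This is 13% and 39.1%, against 14.2% and 14.4% of all genes, with a median of -0.37 beside -0.02 over all genes. Without WT denervated replicate 1 it was 5 and 16, and without replicate 2 it was 8 and 10, with a median of 0.01, beside 37.7% higher and 39.3% lower of all genes in the former case and 33.1% and 33.3% in the latter. Sfn, a 14-3-3 protein that holds cells in G2, was at 2.64 and 4.55 in WT and 0.509 and 0.724 in DKO-labelled muscle (-2.53 ± 0.42, adjusted p = 0.2). Phlda3, an inhibitor of Akt, was at 158 and 182 against 77.9 and 55.7 (-1.34 ± 0.24, adjusted p = 0.213). Trp53inp1, a stress protein of autophagy, was at 36.4 and 41.3 against 17.5 and 18.4 (-1.11 ± 0.20, adjusted p = 0.213). Cdkn1a, the growth arrest gene most tied to p53, overlapped at 261 and 775 against 239 and 445 (-0.60 ± 0.51).

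Of 14 positional Hox genes, 2 were above and 4 below WT (14.3% and 28.6%, against 14.2% and 14.4% of all genes). The counts were 6 and 6 without WT denervated replicate 1 (against 37.7% and 39.3%). They were 3 and 8 without replicate 2 (against 33.1% and 33.3%). Hoxd8 was at 3.599 and 2.19 in WT and 10.4 and 8.83 in DKO-labelled muscle (1.72 ± 0.31, adjusted p = 0.234). Its neighbour Hoxd9 was at 2.20 and 2.04 against 5.69 and 5.06 (1.34 ± 0.26, adjusted p = 0.295). The largest distance on the lower side was that of the unnamed transcript 1600029D21Rik, named after its values were seen, at 5.21 and 28.5 in WT after denervation and 0.0849 and 0.121 with the DKO label (adjusted p = 0.140).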
